A study of Mus musculus with 10 samples.

Results

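Keratin genes encode the intermediate filament proteins of epithelial cells, and here they were the 53 protein-coding genes of GENCODE M21 (mouse build GRCm38) whose symbol is Krt followed by a number with an optional letter, out of 21938 protein-coding genes. Keratin-associated Krtap genes were left out. Of the 53, 27 lie in a cluster on chromosome 11 and 26 in a cluster on chromosome 15. They were divided into 6 simple-epithelial keratins (*Krt7*, *Krt8*, *Krt18*, *Krt19*, *Krt20* and *Krt23*), 22 keratins of basal and stratified epithelium, 7 of the inner root sheath of the hair follicle, 15 hair keratins and 3 others. Chromatin accessibility at these genes was read from Omni-ATAC-seq, in which a transposase cuts open chromatin and regions with many cuts are called as peaks.

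The data were 10 peak lists, 1 for each library of sorted live cells from mouse colon organoids, which are epithelial cultures grown in Matrigel. WT organoids came from littermate controls, and AHR KO organoids from Vil-cre Ahr fl/fl mice, in which Cre under the villin promoter removes the aryl hydrocarbon receptor gene in gut epithelium. WENR medium held EGF, Noggin and R-spondin1 together with Wnt3a-conditioned medium, nicotinamide and the inhibitors SB202190 and A83-01. In d4 ENR, organoids had been kept for 4 days without Wnt3a and without those additives, so the loss of Wnt3a and the loss of the additives cannot be told apart. There were 2 WT WENR, 3 AHR KO WENR, 3 WT d4 ENR and 2 AHR KO d4 ENR libraries. Ages of the mice are not given in the sources used here.

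Keratins work as pairs of a type I and a type II protein, and the type I genes sit together on chromosome 11 and the type II genes on chromosome 15. *Krt18* is the exception, since it is a type I gene at the end of the type II cluster, beside its partner *Krt8*. Keratin 8 with keratins 18, 19 and 20 forms the filament network of the colon epithelium, keratin 20 being a protein of differentiated surface cells and keratin 7 one of other simple epithelia and ducts. Keratins 5 and 14 belong to the basal layer of stratified epithelia, keratins 1 and 10 to the epidermis above it, and keratins 6, 16 and 17 to skin appendages and wounded skin. An ATAC-seq peak shows that chromatin is open, not that the gene is transcribed.

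Sequences around 5 keratin starts, and of the region between *Krt8* and *Krt18*, are shown because the peaks described below lie on them or are missing from them. RefSeq promoters (GRCm38.p6) were matched by symbol for 36 of the 53 keratins, giving 37 promoters since *Krt13* has 2 starts. Each promoter is printed 5′ to 3′ from 250 bases before the start to 30 bases after it. The intergenic sequence is the middle 300 bases of the stretch covered in all 10 libraries. Capitals mark matches on either strand to the letters of 6 motifs: the TATA box TATAAA, the GC box GGGCGG, AP-1 TGANTCA, TEAD CATTCC, CDX2 CNATAAA and the AHR core GCGTG. *Krt8* carries TATA box letters on both strands that overlap, *Krt18* 2 AHR cores, *Krt7* 4 GC boxes, and *Krt20* 3 TEAD matches and a TATA box that overlaps a CDX2 match. *Krt5*, the basal keratin with no peak in any library, has no match.
*Krt8* promoter, chr15:102004313-102004592, minus strand: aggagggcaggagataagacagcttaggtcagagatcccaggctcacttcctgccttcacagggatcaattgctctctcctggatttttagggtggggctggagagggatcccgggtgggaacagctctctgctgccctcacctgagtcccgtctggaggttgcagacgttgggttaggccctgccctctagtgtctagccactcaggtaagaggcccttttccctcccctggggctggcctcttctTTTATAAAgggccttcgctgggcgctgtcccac
*Krt18* promoter, chr15:102027966-102028245, plus strand: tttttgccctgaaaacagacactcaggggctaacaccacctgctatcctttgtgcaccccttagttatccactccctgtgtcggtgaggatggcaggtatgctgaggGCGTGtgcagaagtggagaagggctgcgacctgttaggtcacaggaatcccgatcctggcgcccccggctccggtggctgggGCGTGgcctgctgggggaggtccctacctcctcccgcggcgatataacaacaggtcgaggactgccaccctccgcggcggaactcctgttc
*Krt7* promoter, chr15:101412153-101412432, plus strand: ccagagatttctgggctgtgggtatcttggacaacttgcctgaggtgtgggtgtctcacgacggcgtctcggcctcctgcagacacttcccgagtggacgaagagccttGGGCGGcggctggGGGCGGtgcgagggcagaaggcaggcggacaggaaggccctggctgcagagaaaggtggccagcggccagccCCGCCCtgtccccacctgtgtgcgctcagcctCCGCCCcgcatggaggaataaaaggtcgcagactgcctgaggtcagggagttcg
*Krt20* promoter, chr11:99438124-99438403, minus strand: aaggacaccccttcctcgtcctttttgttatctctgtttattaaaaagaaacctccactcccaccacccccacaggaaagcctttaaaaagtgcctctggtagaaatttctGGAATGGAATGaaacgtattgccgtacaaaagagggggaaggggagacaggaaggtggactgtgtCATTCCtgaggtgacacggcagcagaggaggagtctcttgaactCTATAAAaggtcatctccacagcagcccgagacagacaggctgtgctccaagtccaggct
*Krt5* promoter, chr15:101712876-101713155, minus strand: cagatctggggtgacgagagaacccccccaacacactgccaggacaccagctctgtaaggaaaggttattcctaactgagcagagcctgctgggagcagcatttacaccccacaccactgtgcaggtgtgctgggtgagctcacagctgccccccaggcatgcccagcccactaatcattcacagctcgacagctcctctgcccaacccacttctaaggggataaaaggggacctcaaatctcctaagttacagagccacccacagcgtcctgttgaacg
Region between *Krt8* and *Krt18*, chr15:102017058-102017357, plus strand: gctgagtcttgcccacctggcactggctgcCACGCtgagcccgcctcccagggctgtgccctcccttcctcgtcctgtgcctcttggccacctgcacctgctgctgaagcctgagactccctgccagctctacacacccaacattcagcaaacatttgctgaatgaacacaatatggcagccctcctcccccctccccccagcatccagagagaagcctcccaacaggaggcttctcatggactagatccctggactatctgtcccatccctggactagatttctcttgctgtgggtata

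Among the 37 keratin promoters, 19 (51.4%) held the TATA box, against 13.6% of all 32851 RefSeq promoters of the same length. The CDX2 letters stood in 40.5% of keratin promoters and 10.9% of all promoters, and a CDX2 match can contain the TATA box letters. GC boxes were present in 5.41% of keratin promoters and 35.7% of all, the AHR core in 13.5% and 32.4%, the TEAD letters in 8.11% and 14.7%, and the AP-1 letters in 5.41% and 7.81%. The 4 keratin promoters with a peak at the start in all 10 libraries (*Krt7*, *Krt8*, *Krt18* and 1 start of *Krt13*) had a median GC content of 59.7%, the 24 without a peak at the start in any library 48.5%, and all promoters 52.7%. The RefSeq starts differ from the GENCODE gene starts used for the ranks below, by which 4 keratins (*Krt8*, *Krt18*, *Krt80* and *Krt83*) had such a peak, and from the GENCODE coding transcript starts, by which 7 did (these 4 with *Krt7*, *Krt10* and *Krt19*). *Krt80* and *Krt83* were among the keratins not matched in RefSeq. These matches describe the letters in these windows.

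The libraries held 41686181 to 49126792 fragments in WENR and 30354729 to 36307860 in d4 ENR. Peak numbers were 61485 to 65308 in WENR, 33433 to 54768 in WT d4 ENR, and 49339 and 58359 in AHR KO d4 ENR. The share of fragment coverage inside peaks was 63.0 to 68.6% in WENR, 14.1 to 30.9% in WT d4 ENR and 33.8 to 44.2% in AHR KO d4 ENR. Fragments averaged 235 to 255 bp in WENR libraries, 156 to 200 bp in WT d4 ENR, and 202 and 221 bp in AHR KO d4 ENR. Over the genome, peaks covered 61.8 to 67.2 Mb in WENR, 26.2 to 41.0 Mb in WT d4 ENR, and 46.6 and 50.1 Mb in AHR KO d4 ENR. Fragment totals, peak numbers, bases under peaks, the share in peaks and fragment length did not overlap between the media. Bases under peaks, the share in peaks and fragment length did not overlap between the genotypes in d4 ENR either. Fragment totals and peak numbers did overlap there. The part of these measures in the differences at keratins was not tested. The *Ahr* window held 2142 and 2544 bp of peaks in WT WENR, 5130, 5346 and 7017 bp in AHR KO WENR, 1216, 1595 and 1318 bp in WT d4 ENR, and 3541 and 3250 bp in AHR KO d4 ENR. Peak coverage there was higher in AHR KO, and a peak list cannot show the deletion itself. All 9 colon epithelium markers examined had a peak in every library, as did 64.9% of all protein-coding genes. Of 8 markers of stratified epithelium, 4 did so, *Dsg1a* had none, and *Trp63*, which encodes the factor that defines basal cells, had peaks in 8 libraries, with 3587 to 5549 bp in WENR and at most 316 bp in d4 ENR. The summed coverage of those 8 genes was 13569 to 13991 bp in WT WENR, 15617 to 18479 bp in AHR KO WENR, 3729 to 5589 bp in WT d4 ENR and 6236 to 6571 bp in AHR KO d4 ENR, and its part in the keratin results was not tested. Of 10 immune, endothelial and stromal markers, 3 had a peak in every library and *Cd3e*, *Col1a2* and *Dcn* in none. Their summed coverage was 10730 to 11550 bp in WT WENR, 10021 to 12275 bp in AHR KO WENR, 3511 to 7329 bp in WT d4 ENR and 6050 to 8713 bp in AHR KO d4 ENR. That of the 9 colon epithelium markers was 69415 to 71842 bp in WT WENR and 70393 to 81115 bp in AHR KO WENR. In d4 ENR it was 34898 to 53319 bp in WT and 60633 to 62782 bp in AHR KO. Median windows were 36184 bp for the colon, 21964 bp for the stratified and 47633 bp for the immune, endothelial and stromal markers.

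Coverage of a gene was the number of bases under peaks in a window from 5 kb before to 5 kb past the gene body. By this measure 42 of 53 keratins (79.2%) had a peak in at least 1 library, against 78.8% of all protein-coding genes. In all 10 libraries 22 of 53 (41.5%) had one, against 64.9% of all protein-coding genes. The median window was 16594 bp for keratins and 27425 bp for all genes. All 6 simple-epithelial keratins had a peak in every library. So did 8 of 22 basal and stratified, 6 of 15 hair and 2 of 3 other keratins, and 0 of 7 inner root sheath keratins. Of the 47 keratins outside the simple-epithelial class, 36 (76.6%) had a peak in some library, near the 78.8% of all genes. In all 10 libraries 16 (34.0%) had one, fewer than the 64.9% of all genes. At the level of peaks the epidermal and hair keratins were thus not uniformly closed. Windows of 39 keratins overlap the window of another keratin, so that 1 peak can count for several genes. The median share of the window under peaks, averaged over libraries, was 19.4% for simple-epithelial keratins and 4.77% for the others.

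The 11 keratins without a peak in any library were 8 of basal and stratified epithelium (*Krt24*, *Krt9*, *Krt42*, *Krt6b*, *Krt6a*, *Krt5*, *Krt2* and *Krt76*), 2 of the inner root sheath (*Krt71* and *Krt73*) and the hair keratin *Krt40*. Thus *Krt5*, the type II keratin of basal cells, was without a peak, whereas the window of its partner *Krt14* held 1480 and 2038 bp in WT WENR, 2051, 1515 and 1998 bp in AHR KO WENR, 0, 514 and 1444 bp in WT d4 ENR, and 1728 and 1829 bp in AHR KO d4 ENR. The WT d4 ENR libraries were lower than all others for *Krt14*. Similarly, *Krt6a* and *Krt6b* had no peak, but *Krt16* and *Krt17*, their type I counterparts in wounded skin, did. *Krt17* held 3265 and 2288 bp in WT WENR, 1980, 2398 and 2356 bp in AHR KO WENR, 404, 534 and 266 bp in WT d4 ENR, and 274 and 772 bp in AHR KO d4 ENR. These bases all came from 1 weak intergenic region (100252687 to 100256199, percentiles 5.74 to 39.4) past the 3′ end of *Krt17*, part of which also falls in the *Krt16* window, and neither the *Krt17* gene body nor its promoter held a peak. All WENR libraries lay above all d4 ENR libraries for that region, and the genotypes overlapped in both media. The difference of d4 ENR from WENR in the *Krt17* window was -2048 bp, averaged over genotypes (exact permutation test within genotypes, 2-sided, p = 0.02, adjusted p = 0.0387). Since 10 × 10 arrangements allow no p under 0.02, a call below rests on groups that do not overlap, and the p is given beside it.

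**Figure D1:**
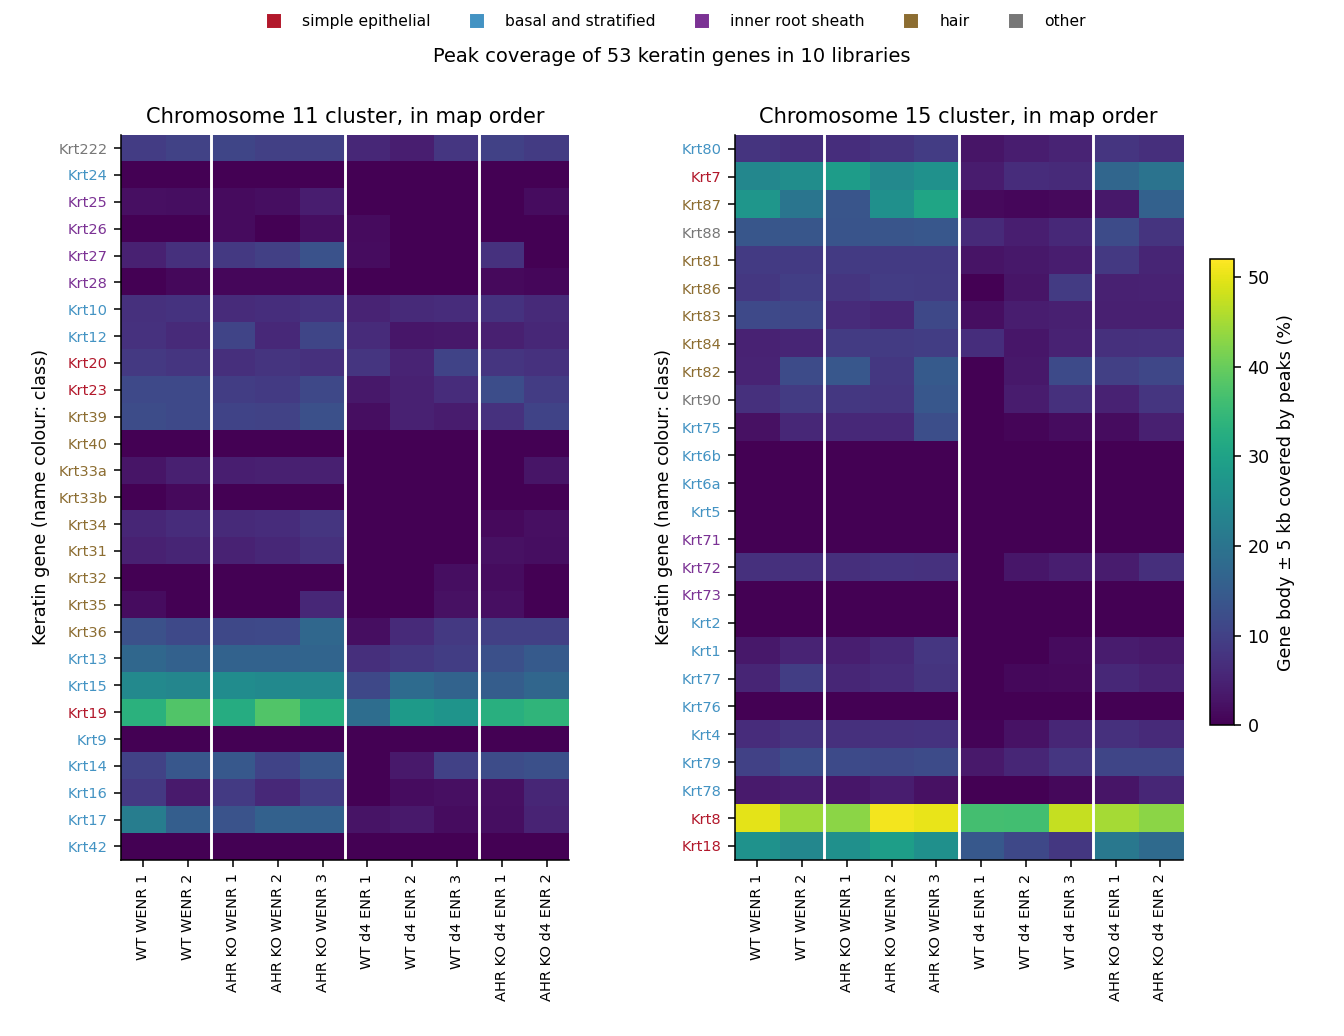
Share of each keratin's window (gene body with 5 kb each side) under peaks, in percent, with genes in map order on each chromosome as the vertical axis and the 10 libraries as columns, white lines parting the 4 groups. *Krt8*, with a mean of 44.7% of its window, is the brightest, the 11 keratins without a peak are dark in every column, and most keratins are darker in the 3 WT d4 ENR columns than in WENR.

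*Krt8*, the type II keratin of simple epithelia, had the highest share of its window under peaks of any keratin (44.7% on average). Its window (gene at chr15:101996698-102004482, minus strand) held 8877 and 7880 bp in WT WENR, 7631, 9094 and 8958 bp in AHR KO WENR, 6467, 6465 and 8440 bp in WT d4 ENR, and 8007 and 7657 bp in AHR KO d4 ENR. The groups overlapped, and *Krt8* differed by -992 bp between media (exact permutation test, p = 0.12) and by 708 bp between AHR KO and WT in d4 ENR (exact permutation test, p = 0.6). WT d4 ENR replicate 3 was the only WT d4 ENR library above the AHR KO ones. Leaving it out therefore separates the genotypes by itself (1366 bp). A region at 102002867 to 102007459 on chromosome 15 covered the *Krt8* start in all 10 libraries, where the TATA box of the printed promoter lies. The bases of peaks in it were 4446 and 4458 in WT WENR, 4458, 4458 and 4388 in AHR KO WENR, 4251, 3786 and 4445 in WT d4 ENR, and 4593 and 4471 in AHR KO d4 ENR. The lowest value, in WT d4 ENR replicate 2, came where the *Krt8* promoter peak was split, and all others were within 4251 to 4593 bp. The rank of a peak was its percentile in its own list by -log10 q, 100 being the strongest. At *Krt8* it was 68.5 and 67.4 in WT WENR, 62.2, 67.8 and 70.2 in AHR KO WENR, 57.1, 70.2 and 68.8 in WT d4 ENR, and 67.0 and 66.4 in AHR KO d4 ENR, again with groups that overlapped (difference between media -1.28 percentile points, exact permutation test, p = 0.76). A percentile also depends on how many weak peaks a list holds, and the lists differ in length between the groups, so ranks were computed again in lists shortened to the 33433 strongest peaks, called lists of equal length below. At *Krt8* the media then overlapped in AHR KO only, and the difference between them turned to 12.5 percentile points in the other direction (exact permutation test, p = 0.04).

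*Krt18*, the type I partner of keratin 8 (chr15:102028180-102032027, plus strand), held 3668 and 3323 bp in WT WENR, 3620, 4039 and 3621 bp in AHR KO WENR, 1985, 1557 and 1178 bp in WT d4 ENR, and 2894 and 2486 bp in AHR KO d4 ENR. All d4 ENR libraries were below all WENR libraries of their genotype (-1496 bp, exact permutation test, p = 0.02, adjusted p = 0.0387). Both AHR KO libraries exceeded the 3 WT libraries in d4 ENR by 1117 bp or 1.71-fold, at the smallest p this comparison allows (exact permutation test of 2 against 3 libraries, p = 0.2). These separations of *Krt18* were lost when the lists were shortened to equal length (-131 bp for the medium and 106 bp for the genotype) or when the gene body alone was counted (-112 and 188 bp). Part of the difference lay past the 3′ end of the gene, in a region at 102032806 to 102034998 that held 1387 and 1493 bp in WT WENR, 2007, 2162 and 2151 bp in AHR KO WENR, 443, 0 and 0 bp in WT d4 ENR, and 1040 and 819 bp in AHR KO d4 ENR. The peak at the *Krt18* start (102027907 to 102029816) was present in all 10 libraries. Its rank was 81.4 and 83.4 in WT WENR, 86.0, 78.6 and 87.3 in AHR KO WENR, 60.8, 59.0 and 63.0 in WT d4 ENR, and 80.4 and 71.7 in AHR KO d4 ENR. The *Krt18* start peak was lowest in the 3 WT d4 ENR libraries, and in AHR KO the media overlapped (difference between media -14.7 percentile points, exact permutation test, p = 0.04, adjusted p = 0.0908). With lists of equal length it was -14.1 percentile points (exact permutation test, p = 0.08).

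*Krt8* and *Krt18* are divergent genes whose starts lie 23698 bp apart. The strongest peak of this locus lay at neither start. It was the region at chr15:102016017-102018355 between them, 12704 bp from the *Krt8* start and 10994 bp from the *Krt18* start, and outside both 5 kb windows. It had a percentile of 90.0 to 96.2 in all 10 libraries. Its central 300 bases, printed above, had a GC content of 58.7% and 1 match to the AHR core. Of the 135 regions of both clusters, 43 were present in all 10 libraries. Among those 43 this region had the highest median percentile (92.6), followed by 89.5 at the *Krtap2-4* promoter and 88.3 at the *Smarce1* promoter.

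**Figure D2:**
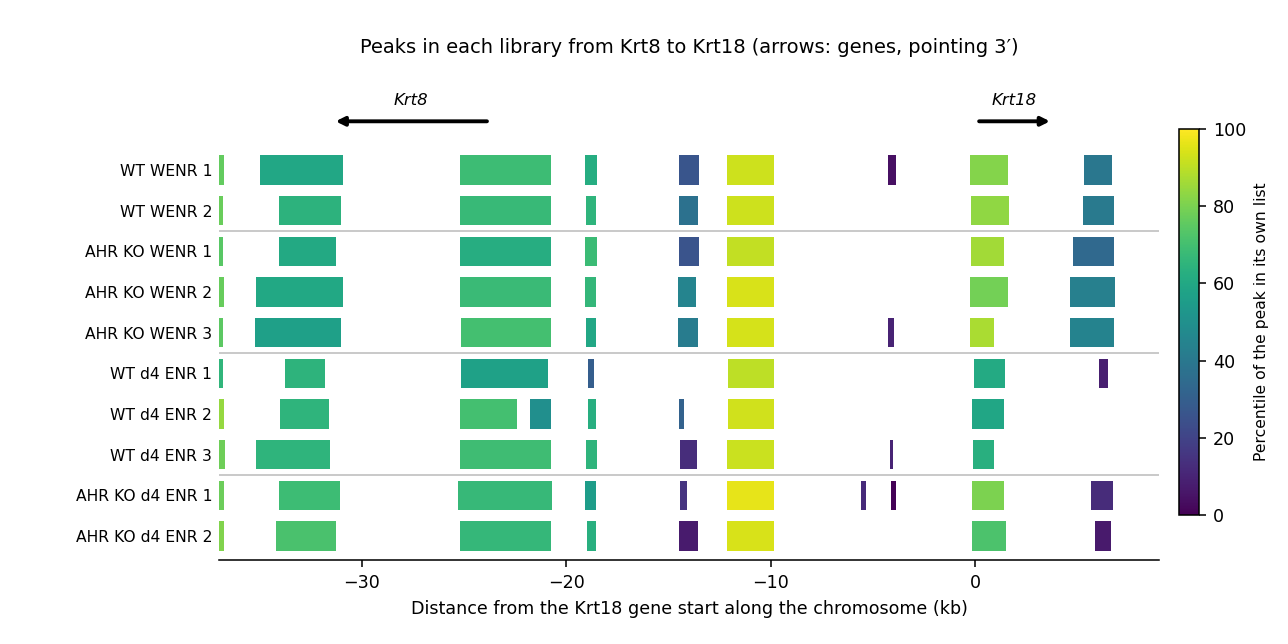
Peaks of each library as bars along the chromosome from *Krt8* to *Krt18*, with distance from the *Krt18* start in kb on the horizontal axis, libraries as lines and bar colour giving the percentile of the peak in its own list. The region between the genes has the highest percentiles (90.0 to 96.2) in every library, and the region 3′ of *Krt18* is missing from 2 WT d4 ENR libraries.

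*Krt7*, a type II keratin of ducts and other simple epithelia, showed the largest change among the simple-epithelial keratins. Its window (gene at chr15:101411043-101430313, plus strand) held 7017 and 7475 bp in WT WENR, 8399, 7183 and 7686 bp in AHR KO WENR, 1162, 1936 and 1796 bp in WT d4 ENR, and 5006 and 5823 bp in AHR KO d4 ENR. The AHR KO d4 ENR libraries lay between the WENR libraries and the WT d4 ENR libraries, with no overlap. Group means were 7246 ± 324 bp (SD, n = 2), 7756 ± 611 bp (n = 3), 1631 ± 412 bp (n = 3) and 5414.5 ± 578 bp (n = 2) in the same order. Coverage of *Krt7* fell by 3978 bp in d4 ENR (exact permutation test, p = 0.02, adjusted p = 0.0387). Of the WENR mean, 22.5% was left in WT and 69.8% in AHR KO. In d4 ENR, *Krt7* coverage was 3.32-fold higher in AHR KO, a difference of 3783 bp (exact permutation test, p = 0.2, the smallest possible) that 2.14% of all tested genes equalled or exceeded. In WENR the genotypes overlapped (510 bp, exact permutation test, p = 0.4). The genotype difference changed by 3273 bp from WENR to d4 ENR (exact permutation test, p = 0.18, adjusted p = 0.483).

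The *Krt7* change was made up of parts that differed between the genotypes. The region over the *Krt7* start (101410755 to 101415215) held 4246 and 4345 bp in WT WENR, 4394, 3152 and 2963 bp in AHR KO WENR, 940, 1805 and 1275 bp in WT d4 ENR, and 4290 and 3188 bp in AHR KO d4 ENR. The AHR KO d4 ENR values fell within the range of WENR, and the WT d4 ENR values below it. Averaged over genotypes, the start region differed by -1360 bp between media. In the promoter from 1 kb before to 100 bp after the gene start, *Krt7* had a peak in 7 libraries. These were all WENR and both AHR KO d4 ENR libraries, and no WT d4 ENR library had one. The ranks that follow were taken at the coding transcript start instead, a promoter definition chosen after the data were seen. The rank of the peak at the start of the coding transcript, whose promoter carries the 4 GC boxes, was 68.9 and 66.3 in WT WENR, 72.2, 74.8 and 79.8 in AHR KO WENR, 71.3, 79.0 and 74.3 in WT d4 ENR, and 63.1 and 73.5 in AHR KO d4 ENR. The *Krt7* peak was thus narrower in WT d4 ENR, while its ranks there lay within the range of the WENR ranks (difference between media -0.0199 percentile points, exact permutation test, p = 1, and 11.8 with lists of equal length, exact permutation test, p = 0.14). In lists of equal length the d4 ENR ranks were 71.3, 69.9 and 57.9 in WT and 45.5 and 53.8 in AHR KO. There AHR KO ranked below WT without overlap, opposite to the direction of the coverage. A weak region in an intron of the neighbouring hair keratin *Krt87* (101431610 to 101436974, percentiles 1.08 to 23.0) falls partly in the *Krt7* window. The part inside it held 2355 and 2394 bp in WT WENR, 2362, 3704 and 3654 bp in AHR KO WENR, 222, 131 and 218 bp in WT d4 ENR, and 221 and 1574 bp in AHR KO d4 ENR. It was lower in d4 ENR in both genotypes and differed by -2263 bp between media, more than the start region, while the other 4 regions of the window held at most 1643 bp in any library. The separation of the media at *Krt7* was lost with the gene body alone (-1518 bp), with lists of equal length (-1502 bp) and with peaks of -log10 q of at least 5 (-2307 bp).

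**Figure D3:**
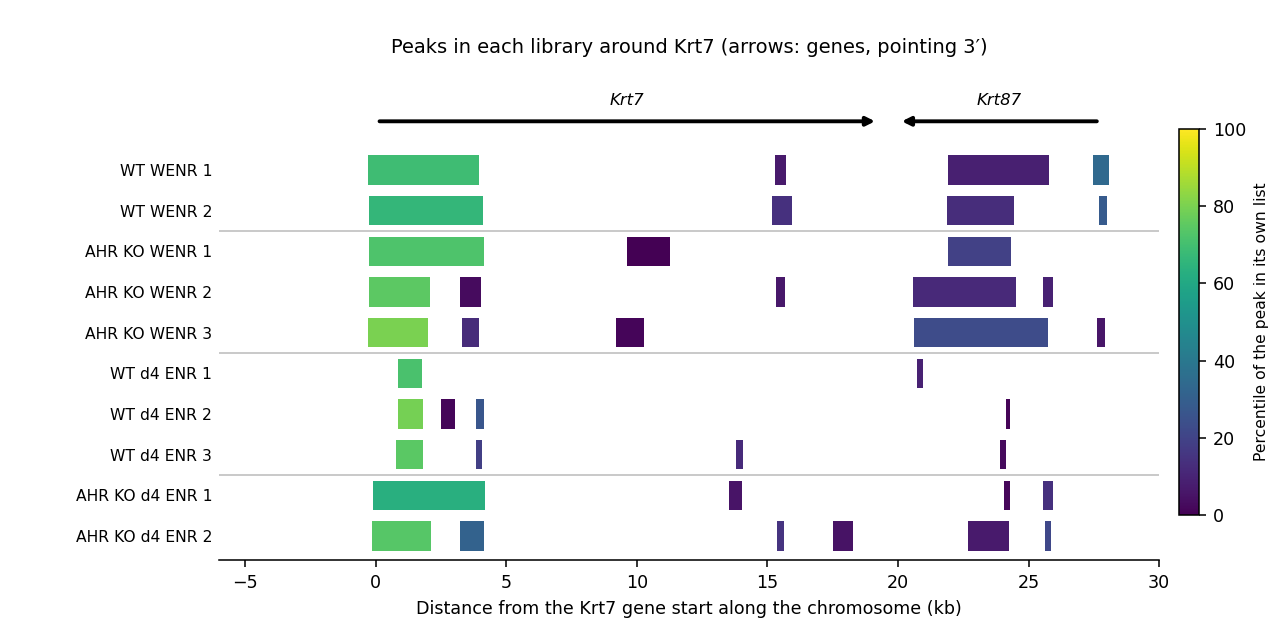
Peaks of each library as bars around *Krt7* and *Krt87*, with distance from the *Krt7* gene start in kb on the horizontal axis and bar colour giving the percentile of the peak in its own list. The bar at the *Krt7* start is short in the 3 WT d4 ENR libraries (940 to 1805 bp in the region) and longer in the others (2963 to 4394 bp), while its colour stays alike, and the bars in *Krt87* are dark, with percentiles of at most 23.0.

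*Krt19*, the smallest keratin and a type I protein of colon crypts (chr11:100140810-100148665, minus strand), held 5944 and 6747 bp in WT WENR, 5753, 6761 and 5804 bp in AHR KO WENR, 3310, 5058 and 4805 bp in WT d4 ENR, and 5874 and 6073 bp in AHR KO d4 ENR. *Krt19* coverage was lowest in the 3 WT d4 ENR libraries, and the AHR KO d4 ENR libraries fell among those of WENR. In d4 ENR, both AHR KO libraries exceeded the 3 WT libraries, by 1582.5 bp or 1.36-fold (exact permutation test, p = 0.2), but not with the gene body alone (83.8 bp) or lists of equal length (881 bp). The media overlapped in AHR KO (-1043.5 bp, exact permutation test, p = 0.12). At the start of the coding transcript of *Krt19* the peak ranked 86.0 and 84.0 in WT WENR, 85.2, 82.2 and 87.2 in AHR KO WENR, 78.9, 73.4 and 73.4 in WT d4 ENR, and 78.1 and 80.7 in AHR KO d4 ENR. The d4 ENR ranks were below the WENR ranks in both genotypes (-7.63 percentile points, exact permutation test, p = 0.02), by a promoter definition chosen after the data were seen. The media overlapped at *Krt19* with lists of equal length in both genotypes (-5.07 percentile points, exact permutation test, p = 0.32).

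*Krt20*, the keratin of differentiated surface colonocytes and goblet cells (chr11:99428403-99438150, minus strand), did not follow that pattern. It held 1685 and 1597 bp in WT WENR, 1392, 1543 and 1424 bp in AHR KO WENR, 1594, 1014 and 2062 bp in WT d4 ENR, and 1582 and 1446 bp in AHR KO d4 ENR. The media overlapped in both genotypes, with a difference at *Krt20* of -11.7 bp (exact permutation test, p = 0.98), and the d4 ENR mean was 94.9% of the WENR mean in WT and 104% in AHR KO. In WENR the AHR KO libraries were all below the WT libraries, by 188 bp (exact permutation test, p = 0.2), and with 20 kb on each side the difference turned to 480 bp in the other direction. *Krt20* had a peak over its promoter, printed above, in WT d4 ENR replicate 3 only, where it ranked 2.23. Its accessible sites were an intron region at 99436235 to 99437133 (percentiles 39.7 to 67.3) and an upstream region at 99440752 to 99442051, 3251 bp before the start (percentiles 30.5 to 73.6), each in all 10 libraries.

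*Krt23*, a type I keratin of gut and other glandular epithelia (chr11:99477974-99493137, minus strand), held 2866 and 2883 bp in WT WENR, 2373, 2210 and 2816 bp in AHR KO WENR, 852, 1187 and 1674 bp in WT d4 ENR, and 3109 and 2338 bp in AHR KO d4 ENR. AHR KO was below WT in WENR and above WT in d4 ENR, without overlap in either medium (-408 and 1486 bp, exact permutation tests, p = 0.2 each). The *Krt23* mean in d4 ENR was 43.1% of the WENR mean in WT and 110% in AHR KO. The genotype difference changed by 1894 bp between the media (exact permutation test, p = 0.02, adjusted p = 0.325). That test reaches its smallest p only where the genotypes separate in opposite directions in the media, so that a larger p at another gene says little. This smallest p of the exact permutation test, 0.02, was reached by 1 of 42 keratins (2.38%) and 6.15% of all tested genes. The region that *Krt23* had in all 10 libraries was in an intron, at 99488840 to 99490007, with percentiles of 69.2 to 83.0, whereas its promoter peak ranked lower. That peak ranked 9.57 and 17.4 in WT WENR, 15.6 and 17.6 in AHR KO WENR replicates 1 and 3, 23.5, 19.9 and 35.1 in WT d4 ENR, and 26.5 and 45.9 in AHR KO d4 ENR, and was missing in AHR KO WENR replicate 2. Each *Krt23* promoter rank in d4 ENR was above each one in WENR. With lists of equal length only WT d4 ENR replicate 1 (23.5) and AHR KO d4 ENR replicate 2 (5.56) kept the peak.

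**Figure D4:**
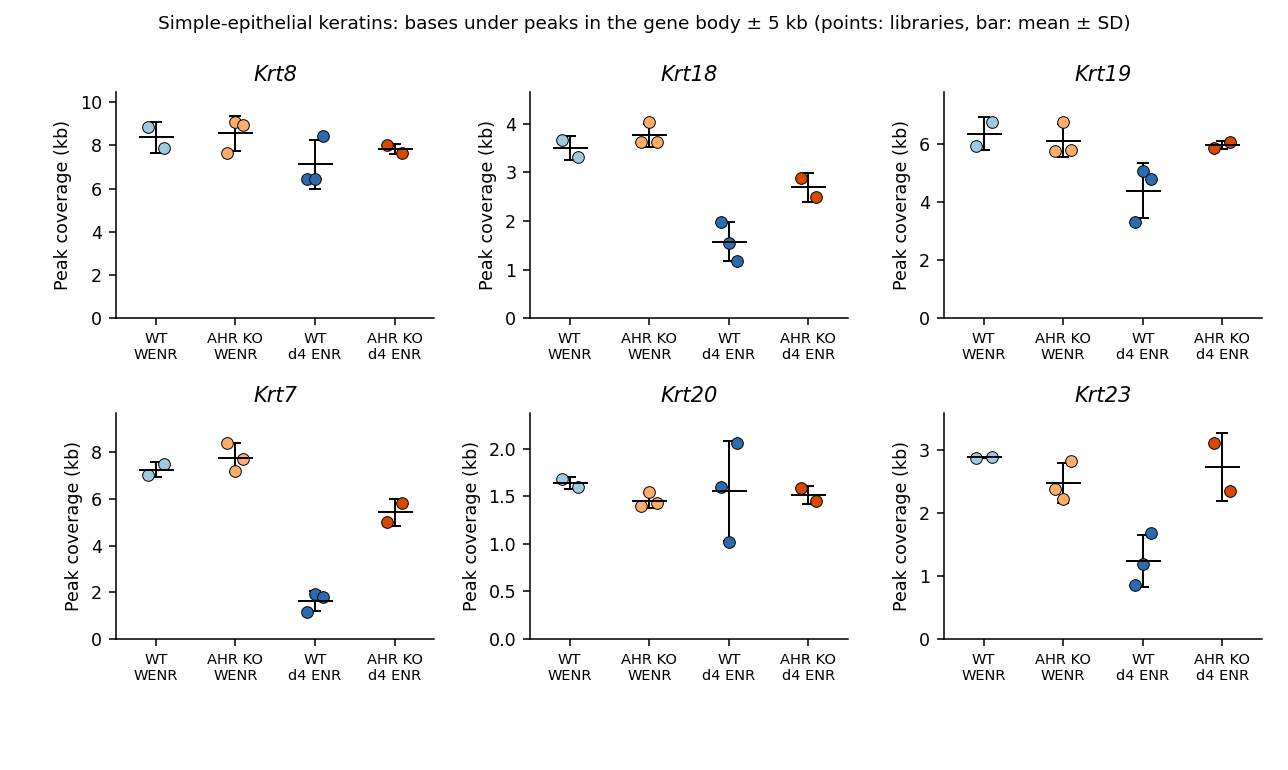
Bases under peaks, in kb, in the windows of the 6 simple-epithelial keratins, with libraries as points and the mean ± SD of each group as a bar. *Krt7* drops to 1162 to 1936 bp in WT d4 ENR while the *Krt20* values of d4 ENR overlap those of WENR in each genotype.

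Outside the simple-epithelial class, 13 of 47 keratins (27.7%) had a peak over the promoter in at least 1 library, against 60.9% of all genes. The promoter ran from 1 kb before to 100 bp after the gene start. A promoter peak in all 10 libraries was found at 2 of the 47 (4.26%), against 48.3% of all genes. *Krt80*, a type II keratin found in many epithelia, and the hair keratin *Krt83* had one in every library. The *Krt80* peak ranked 60.7 and 66.2 in WT WENR, 65.7, 66.5 and 69.6 in AHR KO WENR, 28.3, 12.0 and 19.5 in WT d4 ENR, and 46.2 and 37.2 in AHR KO d4 ENR. The *Krt83* peak ranked 77.4 and 76.3 in WT WENR, 73.4, 70.3 and 67.3 in AHR KO WENR, 51.8, 49.2 and 45.3 in WT d4 ENR, and 63.2 and 63.3 in AHR KO d4 ENR. Both ranks were lowest in WT d4 ENR and intermediate in AHR KO d4 ENR, with no overlap between media. The differences between media were -34.5 percentile points for *Krt80* and -17.6 for *Krt83* (exact permutation test, p = 0.02, adjusted p = 0.0581 each). Among the 4 keratins with a promoter peak in all 10 libraries by gene start, 2 thus ranked lower in d4 ENR in both genotypes, against 31.9% of the genes with such a peak, and 0 ranked higher, against 2.52%. In d4 ENR, 3 of the 4 (*Krt80*, *Krt83* and *Krt18*) ranked higher in AHR KO, by 21.8, 14.5 and 15.1 percentile points, against 33.5% of such genes, and *Krt8* differed by 1.32. These separations were lost with lists of equal length. *Krt80* then kept its peak in all 5 WENR libraries (27.8 to 40.6) but only in WT d4 ENR replicate 1 (28.3) and AHR KO d4 ENR replicate 1 (20.7). *Krt83* ranked 58.5 and 54.9 in WT WENR, 48.4, 43.8 and 36.1 in AHR KO WENR, 51.8, 27.3 and 10.5 in WT d4 ENR, and 45.7 and 36.0 in AHR KO d4 ENR, with overlap in AHR KO (-14.4 percentile points, exact permutation test, p = 0.12). Of the 3 keratins then left with a peak in all libraries, 0 ranked lower in d4 ENR, 0 higher, and 0 higher in AHR KO in d4 ENR, against 12.3%, 10.3% and 18.5% of 9980 genes.

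Several hair and root sheath keratins had a promoter peak in all WENR libraries that was missing or ranked lower in d4 ENR. *Krt27*, a type I keratin of the inner root sheath, had one in all 5 WENR libraries, ranking 44.3 and 51.5 in WT and 52.6, 59.1 and 59.7 in AHR KO, and in no d4 ENR library. With lists of equal length it remained in 4 WENR libraries, with ranks of 7.84 to 22.7. It was 1 of 5 regions among the 83 of the chromosome 11 cluster (6.02%) with that pattern, against 5.46% of 85680 regions over all chromosomes, the others lying at the promoters of *Krtap1-5*, *Krtap17-1* and *Gm11563* and in an exon of *Krt15*. No region in either cluster was in all d4 ENR and no WENR libraries, a pattern of 0.317% of all regions. The hair keratin *Krt39* ranked 78.4 and 80.5 in WT WENR, 77.6, 78.7 and 77.6 in AHR KO WENR, had no peak in WT d4 ENR replicate 1, and ranked 22.8 and 24.9 in the other WT d4 ENR libraries and 28.6 and 31.8 in AHR KO d4 ENR. The *Krt39* peak was, with lists of equal length, in all 5 WENR libraries (56.3 to 63.1) and in no d4 ENR library. *Krt36*, another hair keratin, ranked 58.5 and 58.8 in WT WENR, 61.4, 51.3 and 56.4 in AHR KO WENR, 38.1 and 23.7 in WT d4 ENR replicates 2 and 3, and 32.3 and 45.5 in AHR KO d4 ENR, with no peak in WT d4 ENR replicate 1.

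*Krt4*, a type II keratin of the oral and oesophageal mucosa, differed from these. Its promoter peak ranked 35.2 and 50.0 in WT WENR, 48.9, 44.9 and 50.5 in AHR KO WENR, and 60.2 and 68.1 in AHR KO d4 ENR. In WT d4 ENR it ranked 43.1 and 47.4 in replicates 2 and 3 and was missing in replicate 1. Both AHR KO d4 ENR ranks of *Krt4* were above all others. With lists of equal length they were 41.2 and 44.3, against 18.5 and 13.8 in WT d4 ENR replicates 2 and 3 and at most 4.99 in the 3 WENR libraries that kept the peak. The *Krt86* peak ranked 44.6 and 44.9 in WT WENR and 39.0 to 52.9 in AHR KO WENR, with 48.2 and 17.8 in 2 WT d4 ENR libraries and 17.6 in 1 AHR KO d4 ENR library. The *Krt87* peak ranked 33.9 and 28.2 in WT WENR, 5.71 in AHR KO WENR replicate 3, and was in no other library. *Krt222* shares its window with the promoter of *Smarce1*, a chromatin remodelling subunit. Its own promoter peak ranked 25.5 to 39.8 in WENR, 7.64 and 16.3 in 2 WT d4 ENR libraries, and 33.4 and 21.9 in AHR KO d4 ENR. *Krt32* had a weak promoter peak in WT d4 ENR replicate 3 (18.4) and AHR KO d4 ENR replicate 1 (5.02), and *Krt84* in AHR KO WENR replicate 2 (4.37) and AHR KO d4 ENR replicate 2 (1.14).

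*Krt16* and *Krt90* had a promoter peak in all 3 AHR KO WENR libraries and in no other library. For *Krt16*, a keratin of wounded skin, it ranked 18.4, 27.7 and 26.4. For *Krt90* it ranked 61.7, 58.1 and 68.0. In the WT WENR libraries, however, the peak of the same *Krt90* region began 77 and 9 bp beyond the edge of the promoter window, and in AHR KO WENR replicates 1 and 2 it began 10 and 9 bp inside it, so that the *Krt90* difference rests on where the window ends. *Krt10*, a keratin of differentiated epidermis, had no peak at its gene start, yet a region at the 3′ part of the gene (99385590 to 99386831), where a shorter coding transcript starts, was present in all 10 libraries with percentiles of 78.5 to 92.0. *Krt15*, a type I basal keratin, had the highest share of its window under peaks outside the simple-epithelial class (20.1% on average), with 3465 and 3369 bp in WT WENR, 3595, 3511 and 3463 bp in AHR KO WENR, 1587, 2573 and 2359 bp in WT d4 ENR, and 2171 and 2426 bp in AHR KO d4 ENR. All *Krt15* values in WENR were above all values in d4 ENR, and the genotypes overlapped in d4 ENR. Most of these bases lay in an intergenic region (100138513 to 100141074) that the *Krt15* and *Krt19* windows share. That region held 1913 and 1962 bp in WT WENR, 1952 to 2122 bp in AHR KO WENR, 1587 to 2384 bp in WT d4 ENR, and 1903 and 2088 bp in AHR KO d4 ENR, so the media overlapped there. A region in a *Krt15* exon held 650 to 865 bp in the WENR libraries and none in d4 ENR.

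Over the whole family, coverage was lower in d4 ENR than in WENR, without overlap in either genotype, at 20 of the 42 keratins with a peak (47.6%), against 51.3% of the 17290 protein-coding genes with a peak. It was higher in d4 ENR at 0 keratins, against 0.301% of genes. The share of keratins lowered was thus close to that of all genes. By class, 2 of 6 simple-epithelial keratins (*Krt7* and *Krt18*), 8 of 14 basal and stratified, 2 of 5 inner root sheath, 6 of 14 hair and 2 of 3 other keratins were lower. The number of keratins with a peak was 38 to 40 per library in WENR, 24, 30 and 34 in WT d4 ENR, and 38 and 37 in AHR KO d4 ENR. As shares these were 71.7 to 75.5%, 45.3 to 64.2%, and 71.7 and 69.8%. Of all genes, 75.1 to 75.8% had a peak in WENR, 66.6 to 72.2% in WT d4 ENR, and 71.7 and 73.7% in AHR KO d4 ENR. With all lists shortened to the 33433 strongest peaks, 8 of 33 keratins (24.2%) and 35.0% of all genes were lower in d4 ENR.

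In d4 ENR, coverage was higher in both AHR KO libraries than in the 3 WT libraries at 24 of 42 keratins (57.1%), against 54.4% of all genes, and lower at 0, against 0.237%. The share for keratins was again near that of all genes. By class these were 4 of 6 simple-epithelial keratins (*Krt7*, *Krt18*, *Krt19* and *Krt23*), 10 of 14 basal and stratified, 1 of 5 inner root sheath, 7 of 14 hair and 2 of 3 other keratins. The summed coverage of the simple-epithelial keratins was 15370 to 19955 bp in WT d4 ENR and 25823 to 26472 bp in AHR KO d4 ENR, and that of the other keratins 12116 to 26402 bp and 34552 to 38393 bp, with peaks shared by overlapping windows counted for each gene. In WENR the simple-epithelial sums were 29905 to 30057 bp in WT and 29168 to 30830 bp in AHR KO. With lists of equal length, 10 of 33 keratins (30.3%) and 52.2% of all genes were higher in AHR KO in d4 ENR, and with peaks of -log10 q of at least 5, 14 of 39 (35.9%) and 56.8%, so the share for keratins was then below that of all genes.

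In WENR the genotypes overlapped at most keratins. Coverage was higher in AHR KO without overlap at 3 of 42 (*Krt27*, *Krt84* and *Krt75*; 7.14%), against 11.8% of all genes, and lower at 2 (*Krt20* and *Krt23*; 4.76%), against 11.1%. *Krt84*, a hair keratin also found on the tongue, held 893 and 944 bp in WT WENR, 1613, 1598 and 1695 bp in AHR KO WENR, 1218, 548 and 879 bp in WT d4 ENR, and 1266 and 1324 bp in AHR KO d4 ENR. It was thus higher in AHR KO in both media (717 bp in WENR and 413 bp in d4 ENR, exact permutation tests, p = 0.2 each). *Krt75*, a keratin of the companion layer of the hair follicle, was also higher in AHR KO in both media (820 bp and 477 bp, exact permutation tests, p = 0.2 each). In the classes used here *Krt75* was counted with the basal and stratified keratins.

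The share of the WENR coverage that was left in d4 ENR was computed per gene and genotype from the group means. Its median was 39.0% in WT and 72.7% in AHR KO over the 40 keratins with a value in each, against 60.4% and 82.9% for all genes. For the simple-epithelial keratins the medians were 57.1% and 94.7%, for basal and stratified keratins 38.5% and 82.3%, for hair keratins 31.6% and 57.6%, and for inner root sheath keratins 4.99% and 35.4%. Of 39 keratins with a value in both genotypes, 36 (92.3%) kept a larger share in AHR KO, and 88.8% of all genes did. The exceptions were *Krt12*, *Krt35* and *Krt84*.

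**Figure D5:**
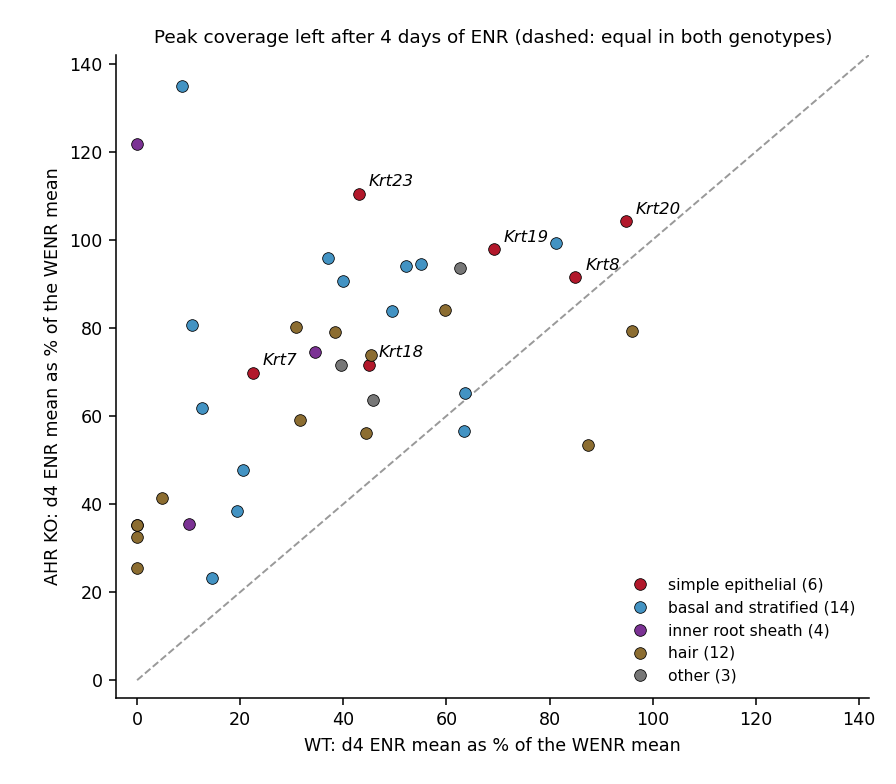
Mean coverage in d4 ENR as a percentage of that in WENR, for WT on the horizontal and AHR KO on the vertical axis, with each of 39 keratins as a point coloured by class and the dashed line marking equal shares. Of the points, 36 lie above the line, the 3 below it are *Krt12*, *Krt35* and *Krt84*, and *Krt7* stands at 22.5% and 69.8%.

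The genes whose products hold keratin filaments at desmosomes or link them to other structures were covered in every library (13 of 13). Of them, 12 (92.3%) were lower in d4 ENR in both genotypes, against 51.3% of all genes, and 11 (84.6%) were higher in AHR KO than in WT in d4 ENR, against 54.4%. Their median window was 38922 bp. *Dsp*, which encodes the desmosomal protein that anchors keratin filaments, held 9472 and 10843 bp in WT WENR, 11643, 11698 and 11775 bp in AHR KO WENR, 5131, 5040 and 5702 bp in WT d4 ENR, and 6294 and 5970 bp in AHR KO d4 ENR. The share of the WENR coverage left at *Dsp* was 52.1% in WT and 52.4% in AHR KO. *Plec*, encoding the cytolinker plectin, held 8992 to 11151 bp in WT d4 ENR, 12488 and 13529 bp in AHR KO d4 ENR, and 13455 to 18367 bp in WENR. Of 14 intermediate filament genes outside the keratin family, 11 had a peak in every library and 13 in at least 1. Of those 13, 7 (53.8%) were lower in d4 ENR and 6 (46.2%) were higher in AHR KO in d4 ENR, against the same 51.3% and 54.4%. In WENR, 5 of the 13 (*Des*, *Gfap*, *Nes*, *Ina* and *Lmnb2*; 38.5%) were lower in AHR KO, against 11.1% of all genes. *Vim*, the intermediate filament gene of mesenchymal cells, held 2366 and 2452 bp in WT WENR, 2542, 2236 and 2250 bp in AHR KO WENR, 1171, 1918 and 1266 bp in WT d4 ENR, and 2428 and 2367 bp in AHR KO d4 ENR. *Vim* was lowest in the 3 WT d4 ENR libraries. *Nefl*, of neurons, had no peak in any library, and *Des*, of muscle, only in WENR (414 to 1257 bp).

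Both keratin clusters were covered by peaks more densely than their chromosomes in every library. Peaks covered 5.40 to 6.44% of the chromosome 11 cluster (99227761 to 100274871) in WENR and 1.78 to 4.26% in d4 ENR, against 3.64 to 3.90% and 1.64 to 3.01% of the whole chromosome. For the chromosome 15 cluster (101342444 to 102037027) the values were 7.54 to 8.73% in WENR and 3.05 to 6.38% in d4 ENR, against 2.58 to 2.84% and 1.04 to 2.06%. Of the 83 regions in the chromosome 11 cluster 23 were present in all 10 libraries, and 13 of those were intergenic. In the chromosome 15 cluster 20 of 52 regions were in all 10 libraries, 8 of them intergenic.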

How the data were processed

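Omni-ATAC-seq peak lists of 10 libraries were analysed, with groups taken from the titles. The authors trimmed reads (Trim Galore), aligned them with BWA to GRCm38 through nf-core/atacseq and called broad peaks per library with MACS 2.2.7.1 on paired fragments without a control (broad threshold 0.1, narrow q 0.05, local background of 10000 bp, duplicates kept). The deposited columns hold the pileup (mean signal), the fold enrichment over background, and the −log10 p-value and −log10 q-value of each peak. Positions are 1-based. Peak lists hold no read counts, so the study's DESeq2 test on reads per peak was not run here.

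Per GENCODE M21 protein-coding gene, bases under peaks in the gene body with 5 kb each side were summed, and the strongest peak from 1 kb before to 100 bp after the gene start was ranked within its own list by −log10 q. Calls required that groups did not overlap. Exact permutation tests, 2-sided, exchanged media within genotypes (100 arrangements, smallest p 0.02) or genotypes within a medium (10 arrangements, smallest p 0.2). For the difference between genotype effects, genotypes were exchanged within each medium (100 arrangements), so its null is no genotype effect in either medium. Adjusted p-values are Benjamini-Hochberg over the 17290 genes with a peak, or over the 10595 with a promoter peak in all libraries. Whether libraries came from separate cultures is not stated, so p-values measure only the spread between these libraries. Depth is given by the fragment totals in the file headers, which limit where a peak can be called.

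Members and lists were chosen with earlier results of these data known. Named were all simple-epithelial keratins, other keratins with a promoter peak, those without any peak, non-keratin genes whose promoter peak fell in a keratin window, and examples from fixed lists of filament partners, other intermediate filament genes and markers; *Krt10*, *Krt12*, *Krt14*, *Krt15*, *Krt17*, *Krt35* and *Krt75* were named after their values were seen. Alternatives were the gene body alone or with 20 kb each side, lists shortened to 33433 peaks, −log10 q of at least 5, an overlap of at least 200 bp, promoters of 3 kb each side, fold enrichment in place of −log10 q, peaks at other genes' promoters left out, each library left out, a replicate block, and, added after the data were seen, promoters at any coding transcript start, in full lists and in lists of equal length. Python 3.11.15, numpy 2.4.6, pandas 2.3.3, scipy 1.17.1, matplotlib 3.10.9 and samtools 1.23.1 were used, and the tests were tested on simulated data.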

Additional observations from a re-analysis of the deposited data

Results flagged for a closer look

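At *Krt23* the difference of AHR KO from WT changed between the media. AHR KO coverage differed from WT by -408 bp in WENR and by 1486 bp in d4 ENR, a change of 1894 bp (exact permutation test, 2-sided, p = 0.02, adjusted p = 0.325 over 17290 genes). All libraries of the genotypes separated in each medium, in opposite directions, which is the pattern in which this test reaches its smallest p. The same p was reached by 6.15% of all tested genes. With 20 kb on each side of the gene the separation in WENR was lost (-172.5 bp).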

How the results depend on the processing

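Shortening every list to the 33433 strongest peaks lowered the keratins covered less in d4 ENR from 20 to 8. Those covered more in AHR KO in d4 ENR fell from 24 to 10, and promoter peaks ranked lower in d4 ENR from 2 to 0. Keratins covered less in AHR KO in WENR rose from 2 to 5 (15.2% of 33, against 12.8% of all genes). With the gene body alone 13 of 53 keratins (24.5%) had a peak in all 10 libraries, in place of 22, against 59.6% of all genes. Only 33 keratins then had a peak in at least 1 library. Of these, 13 (39.4%) were lower in d4 ENR, against 45% of all genes. Higher in AHR KO were 14 (42.4%) in d4 ENR and 1 (3.03%) in WENR, against 47.5% and 11.8%. With −log10 q of at least 5, 13 of 53 keratins (24.5%) had a peak in all libraries, against 54.8% of all genes. Of 39 with a peak, 14 (35.9%) were higher in AHR KO in d4 ENR and 1 (2.56%) in WENR, against 56.8% and 10.8%. With 20 kb each side, 1 keratin (2.08%) was lower in AHR KO in WENR, against 10.5% of all genes. The difference between genotype effects was then at its smallest p for 0 simple-epithelial keratins, and *Krt20* in WENR reversed to 480 bp. By fold enrichment 1 promoter peak ranked lower, and at any coding transcript start in lists of equal length 0 of 6 did. With the replicate block, 8 keratins were higher and 9 lower in AHR KO in WENR. That block holds 2 pairs of libraries in WENR, so a gene is called wherever its 2 differences have the same sign. The share of all genes called by it was not computed. The numbers were not taken to pair the libraries, since the labels do not say what equal numbers mark. Deviations of same-numbered libraries from their group means correlated at -0.146 to 0.106 between media and -0.0241 to 0.38 between genotypes. Those of other numbers correlated at -0.2 to 0.2 and -0.38 to 0.372. Each comparison holds a group of 2 libraries, whose deviations mirror each other, so these correlations cannot decide whether the numbers pair libraries. The cause of the changes between these settings was not tested.

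Leaving out 1 library at a time gave 22 to 30 keratins with a peak in all libraries, 20 to 23 lower and each time 0 higher in d4 ENR, 24 to 30 higher and 0 to 1 lower in AHR KO in d4 ENR, 3 to 16 higher and 2 to 10 lower in AHR KO in WENR, 1 to 2 simple-epithelial keratins at the smallest p of the difference between genotype effects, and 2 to 4 promoter peaks lower and 0 to 1 higher in d4 ENR. Of these, 16 came without WT WENR replicate 2, 10 without WT WENR replicate 1, 1 keratin lower in AHR KO in d4 ENR without WT d4 ENR replicate 2, 4 promoter peaks without WT d4 ENR replicate 1, and 2 simple-epithelial keratins and 1 promoter peak higher without AHR KO WENR replicate 2; without AHR KO WENR replicates 1 or 2, or WT WENR replicate 1, 8 keratins were higher in AHR KO in WENR, and without WT WENR replicate 2 and AHR KO WENR replicates 2 and 3, 5, 4 and 7 were lower. Without a WT WENR library, 1 WT library is set against 3 AHR KO libraries in WENR, so groups separate more easily. The share of all genes was not computed for the counts with a library left out. Over these counts and alternatives 138 values stayed within 1.5 times of the reported one and 29 did not. Library depth and the number of peaks differ between groups, so a missing peak may be a peak that was not detectable.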
